A study of Mus musculus with 2 samples.

Results

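The clustered protocadherin genes were taken as all protein-coding genes on chromosome 18 of the mouse whose symbol starts with Pcdha, Pcdhb or Pcdhg. The rule uses name and position alone, but it was set with earlier results of these data known. It was met by 57 of 21853 protein-coding genes: 14 alpha, 22 beta and 21 gamma genes. Open chromatin was read from ATAC-seq, in which a transposase inserts adapters into DNA that is not tightly wrapped in nucleosomes. The study held 2 libraries of 1 group: primary T cells of mouse strain C57BL/6NJ, numbered as biological replicates 1 and 2. The labels give no genotype beyond the strain and no treatment or time point, list the age as unknown and the sex as not collected, and attach the same donor record to both libraries. The spread between the libraries may therefore be technical. They link to a protocol on the differentiation of CD4+ T cells, and the peak names carry the words Th0 and ASTARR.insert, which no label explains.

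Clustered protocadherins are cadherin-like adhesion proteins best known from neurons, where each cell uses its own combination of them as a surface identity. Every alpha or gamma gene has its own promoter and its own large first exon, which is spliced to constant exons shared by the whole cluster, while a beta gene is a single large exon. Alternate genes of the alpha, beta and gamma groups are chosen promoter by promoter in neurons, with the insulator protein CTCF, cohesin and DNA methylation taking part, and the C-type genes at the end of the alpha and gamma clusters are used more evenly. The lists were read here for which of these promoters lay in an accessible region of T cells.

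The deposited lists held 78104 regions for replicate 1 and 74733 for replicate 2, of which 78016 and 74653 lay on the standard chromosomes. The depth is unknown, since the lists carry no read totals, and a promoter without a region may have been closed or only too weak for the caller's threshold. In a bulk library a region open in few cells and one weakly open in many cannot be told apart. Of 10 T-cell marker genes, 9 had an accessible promoter in each library, against 62.8% of all protein-coding genes in both. Lat led them, and Cd247 had none. Markers of other cells were accessible in part: 6 of 10 for neurons (Map2 the strongest), 1 of 5 for B cells (Pax5), 0 of 5 for myeloid cells and 4 of 6 for epithelium and fibroblasts (Epcam the strongest). The part of such cells in the results was not tested.

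The 3 clusters differed in how many of their promoters lay in a called region. A promoter region, meaning a region with its summit within 1000 bp of a transcription start, was present in both libraries at 12 of the 57 genes (21.1%), against 62.8% of all protein-coding genes and 72.0% of the other protein-coding genes of chromosome 18. All 12 were gamma genes: 12 of 21 gamma genes (57.1%), 0 of 14 alpha genes and 0 of 22 beta genes. By library, replicate 1 had 16 accessible members (all genes: 64.0%) and replicate 2 had 14 (all genes: 63.8%), which together made 18 genes, 17 gamma and 1 beta (all genes in either library: 65.0%). Of the 57 genes, 4 were accessible in replicate 1 alone, against 1.19% of all genes, and 2 in replicate 2 alone, against 0.966%. With 1 group and no second condition, no test between groups was possible, and these counts are descriptions.

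**Figure D1:**
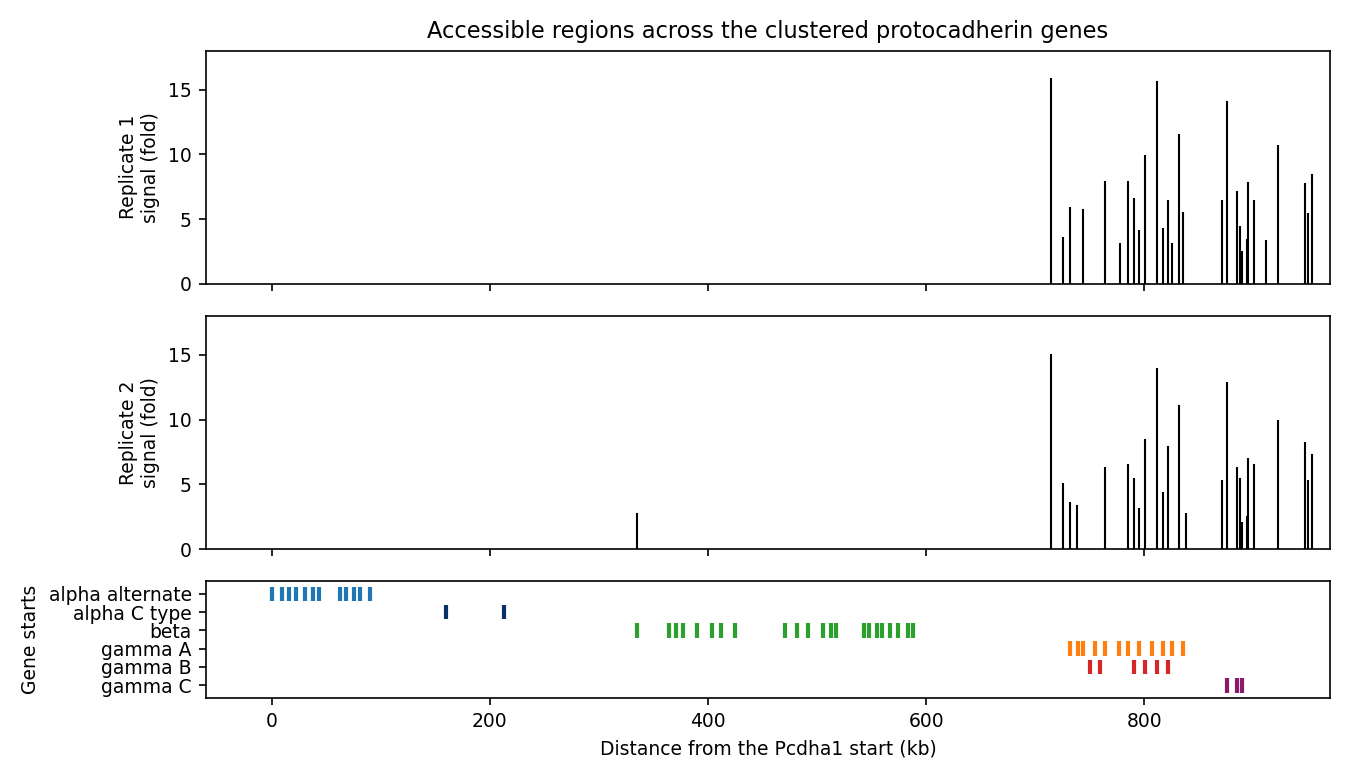
Signal (read as fold over local background) of every region in replicate 1 (top) and replicate 2 (middle) against distance from the Pcdha1 start in kb, with the starts of the 57 genes below by group. The alpha and beta starts lie in a stretch with no region in replicate 1 and a single weak one, at Pcdhb1, in replicate 2, and regions are dense over the gamma starts.

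The alpha cluster spans 36930184 to 37187661 on chromosome 18 (mm10). With 50 kb on each side it held 0 regions in both libraries. Its 12 alternate genes run from Pcdha1, with its 5′ end at 36930184, to Pcdha12 at 37020149, and its C-type genes Pcdhac1 and Pcdhac2 start at 37090013 and 37143503. The nearest summit to the Pcdha1 start was 128394 bp away in replicate 1 and 128310 bp away in replicate 2. For Pcdhac2 the distances were 341713 and 121564 bp. GENCODE gives 2 of these genes the symbol Pcdha11, and RefSeq names the one that starts at 37005203 Pcdha10. No alpha gene was accessible, alternate or C type, which sets the alpha C-type genes apart from the gamma C-type genes described further on.

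The beta cluster spans 37264938 to 37524479 and held 0 regions in replicate 1, flanks included, and 1 in replicate 2. That region, at 37264985 to 37265298, lay in the single exon of Pcdhb1, with its summit 129 bp after the 5′ end and 69 bp after the first base of the start codon. Its signal, a value that no source used here defines and that was read from its range as a fold over local background, was 2.76, and its −log10 q was 2.10, near the lowest value in the list (1.01). Of the promoter regions of replicate 2, 2.49% had a lower signal. The other 21 beta genes, from Pcdhb2 to Pcdhb22, had no promoter region, and their nearest summits were at least 29745 bp away. The flanks of the alpha and beta clusters overlap each other, and neither held a region outside the Pcdhb1 exon.

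In replicate 1 the alpha and beta genes therefore lay in a single stretch of 841 kb without a region, from 36803094 to 37643702. It held the 5′ ends of 40 protein-coding genes: the 36 alpha and beta members, Slc25a2, a mitochondrial carrier gene, and Gm42416, Gm37013 and Gm37388, gene models that read from alpha first exons into the gamma constant exons. Of 2364 such stretches on chromosome 18, 15 were longer, and of 77995 in the genome, 434 were longer and 18 held more genes. The median stretch between neighbouring regions was 8.68 kb. In replicate 2 the Pcdhb1 region divided it, leaving 463 kb over the alpha cluster. Of the other genes between and beside the clusters, 14 had a promoter region in both libraries. Their median signal was 14 in replicate 1 and 13.1 in replicate 2. E230025N22Rik and Dnd1, upstream, had no promoter region, and Cd14 had a region in replicate 1 alone. Arap3, beyond the gamma cluster, had a signal of 3.96 and 3.61. Zmat2, upstream of the alpha cluster and the strongest of the neighbours, had a promoter signal of 17.8 in replicate 1 and 17.0 in replicate 2. Taf7, a subunit gene of the general transcription factor TFIID between the beta and gamma clusters, had 15.9 and 15.1. Its region is the one that ends the stretch.

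The gamma cluster spans 37661793 to 37841873 and was dense in regions. It held 22 regions in replicate 1 and 19 in replicate 2, or 122 and 106 per Mb, against 28.6 and 27.4 per Mb over the genome and 26.1 and 24.8 on chromosome 18. They covered 8.28% and 7.12% of its length. The cluster holds 21 gene starts within 180 kb, and 11 of its 17 regions in both libraries were promoter regions. Over the genome promoter regions ran at 5.35 per Mb in replicate 1 and 5.30 in replicate 2. Of the replicate 1 regions, 17 overlapped a region of replicate 2, and 17 of the replicate 2 regions overlapped 1 of replicate 1. With 50 kb flanks the counts were 29 and 26, of which 24 overlapped in each direction. The median signal with flanks was 6.48 in replicate 1 and 6.35 in replicate 2, against 6.50 over all regions of either library. The median −log10 q was 27.3 and 23.1, against 30.3 and 23.9 over the genome. The flanks include the Taf7 promoter and regions of Diaph1. Within the cluster itself the median signal was 6.47 and 6.33 and the median −log10 q was 21.2 and 15.7, the latter pair below the genome medians, and signal ranged from 2.52 to 15.7 in replicate 1 and from 2.12 to 14.0 in replicate 2.

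Called regions were then counted by promoter type. Gamma genes fall into A, B and C types by sequence, with A and B genes alternating along the cluster and 3 C-type genes next to the constant exons. All 3 C-type genes had a promoter region in both libraries, as had 4 of 6 B genes (66.7%) and 5 of 12 A genes (41.7%), against 62.8% of all genes. In replicate 1 by itself the order of A and B was the other way, with 9 of 12 A genes and 4 of 6 B genes, and the types were not tested against each other. Another 5 A genes had a region in a single library, which is 41.7% of the A genes, against 2.16% of all protein-coding genes. No B or C gene had a region in a single library. Pcdhga4, Pcdhga9, Pcdhgb1 and Pcdhgb2 had none in either.

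**Figure D2:**
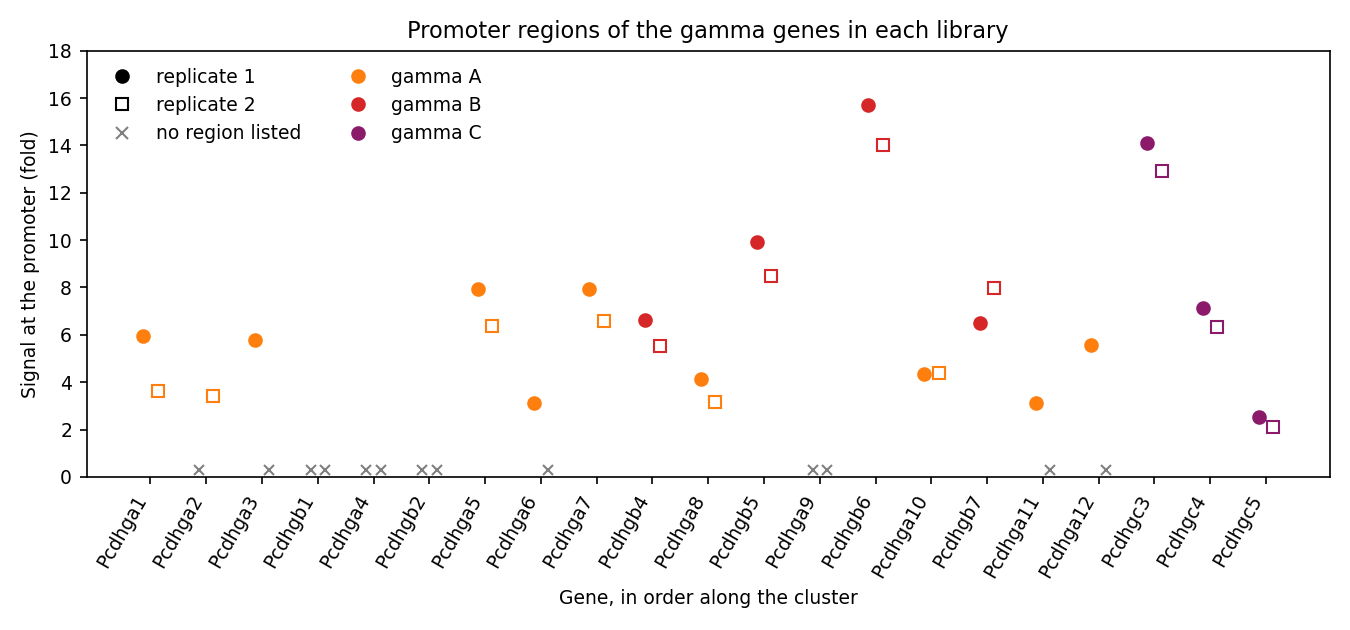
Promoter signal (fold) of the 21 gamma genes in order along the cluster, filled circles for replicate 1 and open squares for replicate 2, coloured by type, with crosses at the foot where no region was listed. Pcdhgb6 and Pcdhgc3 stand above the other genes in both libraries, and every gene with a region in a single library is of A type.

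Among the C-type genes, Pcdhgc3 was the most accessible. Its region, 37805921 to 37807726 in replicate 1, was 1806 bp wide, with a signal of 14.1 in replicate 1 and 12.9 in replicate 2 (13.5 ± 0.892, SD, n = 2) and a −log10 q of 296 and 202. By signal it exceeded 78.8% and 73.7% of all promoter regions, and by −log10 q 80.0% and 79.1%. The median width over all promoter regions of replicate 1 was 1200 bp. Pcdhgc4, the next gene, had a region of 1631 bp in replicate 1, with a signal of 7.14 and 6.33 (6.73 ± 0.576, SD, n = 2) and a −log10 q of 98.1 and 60.8. Pcdhgc5, the last gene of the cluster, had 2.52 and 2.12 (2.32 ± 0.280, SD, n = 2), the lowest signal of the 12 genes with a region in both libraries. Of all promoter regions, 2.11% were lower than it in replicate 1 and 0.651% in replicate 2.

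The B genes held the strongest alternate promoters. Pcdhgb6 had a signal of 15.7 in replicate 1 and 14.0 in replicate 2 (14.8 ± 1.20, SD, n = 2), in a region at 37741927 to 37742622 in replicate 1. Pcdhgb5 had 9.93 and 8.49 (9.21 ± 1.02, SD, n = 2). The values of Pcdhgb6 lay above those of every other alternate gene in both libraries. Pcdhgb7 had 6.48 and 7.97 (7.22 ± 1.06, SD, n = 2), and Pcdhgb4 had 6.62 and 5.52 (6.07 ± 0.780, SD, n = 2). Pcdhgb1 and Pcdhgb2, the B genes nearest the start of the cluster, had no region, with the nearest summits 5927 and 4721 bp away in replicate 1 and 11342 and 4731 bp away in replicate 2. Pcdhgb8, which GENCODE annotates as a polymorphic pseudogene and which is therefore no member, had a region with its summit 107 bp before its start in both libraries, at a signal of 11.6 and 11.1.

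The A genes had the lower medians. Pcdhga7 had 7.94 and 6.58 (7.26 ± 0.966, SD, n = 2) and Pcdhga5 had 7.94 and 6.37 (7.15 ± 1.12, SD, n = 2). Pcdhga1, the gene at the start of the cluster, had 5.96 and 3.61 (4.78 ± 1.66, SD, n = 2), the widest gap between the libraries. Pcdhga10 had 4.33 and 4.38 (4.36 ± 0.0342, SD, n = 2), and Pcdhga8 had 4.14 and 3.18 (3.66 ± 0.675, SD, n = 2). The median A promoter had a signal of 5.55 in replicate 1 (9 regions) and 3.99 in replicate 2 (6 regions), against 8.27 and 8.23 for the 4 B promoters. The A and B ranges overlapped, at 3.14 to 7.94 against 6.48 to 15.7 in replicate 1 and at 3.18 to 6.58 against 5.52 to 14.0 in replicate 2.

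The A promoters found in a single library spanned much of the A range. In replicate 1 these were Pcdhga3 (signal 5.79), Pcdhga12 (5.55), Pcdhga6 (3.14) and Pcdhga11 (3.14), and in replicate 2 it was Pcdhga2 (3.40). Pcdhga3 and Pcdhga12 lay above the shared Pcdhga8 and Pcdhga10 in replicate 1, and Pcdhga6 and Pcdhga11 below them. Pcdhga3 and Pcdhga12 had −log10 q values of 15.5 and 17.5, well above those of 3.98 at Pcdhga6 and Pcdhga11 and 3.86 at Pcdhga2. At Pcdhga12 the libraries listed different regions. Replicate 2 had a region 2650 bp after the gene start, 12 bp inside Gm26672, a noncoding transcript on the other strand, with a signal of 2.76. Pcdhga4 and Pcdhga9 had no promoter region, and Pcdhga9 had its nearest summit 5113 bp away in both libraries.

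Ordered by mean signal, Pcdhgb6 led and Pcdhgc3 came next, lower in both libraries, although their values overlapped between libraries (14.0 to 15.7 against 12.9 to 14.1). Pcdhgb5 followed, below both and above the rest in each library. Pcdhga7, Pcdhgb7, Pcdhga5, Pcdhgc4 and Pcdhgb4 lay between 5.52 and 7.97, and neighbours in this order overlapped. Within each library, Pcdhga7 was above Pcdhgc4 and Pcdhgc4 above Pcdhgb4, while Pcdhgb7 was below these 3 in replicate 1 and above them in replicate 2. The values of Pcdhga1 overlapped those of Pcdhgb4, Pcdhga10 and Pcdhga8, those of Pcdhga8 lay below those of Pcdhga10, and Pcdhgc5 lay below all of them. Signal was higher in replicate 1 at 10 of the 12 genes, with ratios of replicate 1 to replicate 2 from 0.813 at Pcdhgb7 to 1.65 at Pcdhga1. The median signal of the 12 was 6.88 in replicate 1 and 6.35 in replicate 2, against 10.5 and 10.1 over all promoter regions of the genome.

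Signal and −log10 q ranked the gamma genes differently. Pcdhgb6 had the higher signal of the leading pair, and Pcdhgc3 the higher −log10 q, 296 against 96.3 in replicate 1 and 202 against 62.8 in replicate 2. Over the stretch from Pcdhga1 to Pcdhga12 the median −log10 q per unit of signal was 3.07 in replicate 1 and 2.18 in replicate 2. From Pcdhgc3 to the last exon it was 6.11 and 5.57. The ranges overlapped, at 1.27 to 6.14 against 1.73 to 20.9 in replicate 1 and at 0.761 to 4.50 against 1.81 to 15.7 in replicate 2. The region in the last exon had a signal of 3.41 and a −log10 q of 5.91, the lowest ratio of its stretch in replicate 1. How the caller set the local background was not given in the sources used here.

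Summits of the gamma promoter regions lay close to the first exons. In replicate 1, 14 of 16 summits lay before the first base of the start codon, at 145 to 241 bp from it, and the others were at Pcdhga5 (48 bp after it) and Pcdhga6 (208 bp after it). In replicate 2, 9 of 13 lay before it, 8 of them at 100 to 250 bp, and 4 lay after it, at 11 to 59 bp. These 4 were Pcdhga5, Pcdhga7, Pcdhga8 and Pcdhga10, all of A type. Summits of the 12 shared genes moved by a median of 44.5 bp between the libraries, and 7 of the 12 moved by 50 bp or less. The summit of Pcdhgb6 was at the same base in both.

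**Figure D3:**
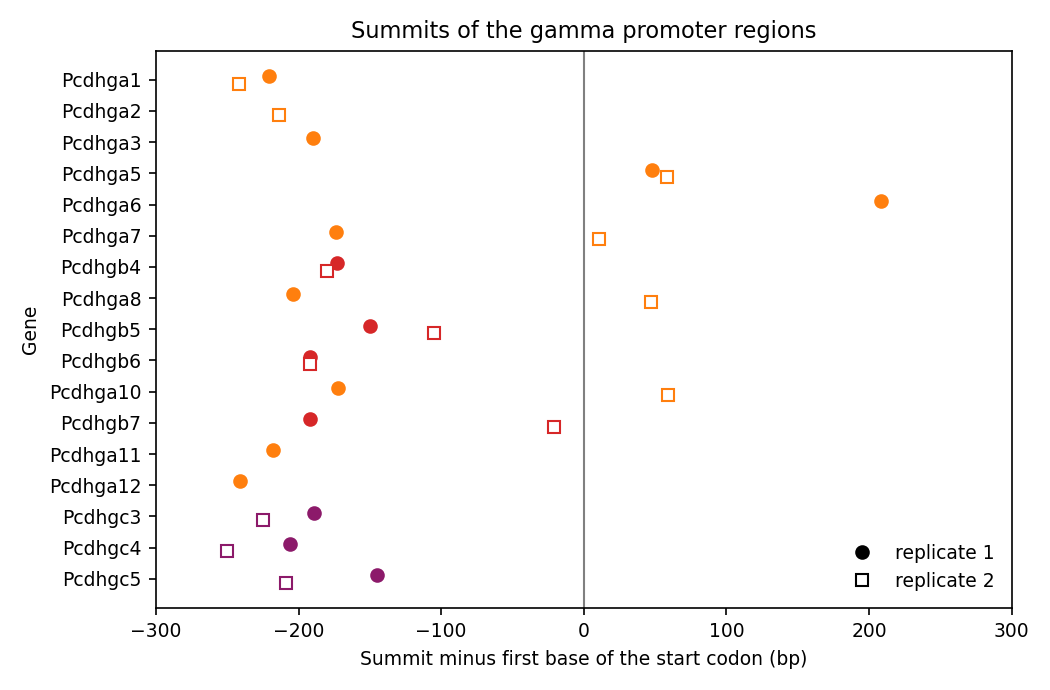
Position of each gamma promoter summit relative to the first base of the start codon (bp, negative before it), filled circles for replicate 1 and open squares for replicate 2. Most summits lie 100 to 250 bp before the start codon, and the summits after it are at A genes.

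Within and around the gamma cluster, 13 regions lay away from protein-coding starts, and 11 of them were in both libraries. The strongest beyond the cluster was at 37852147 to 37852787, in an intron of Diaph1, a formin gene on the opposite strand that follows the gamma cluster, with a signal of 10.7 in replicate 1 and a lower one in replicate 2. Introns of Diaph1 held 3 more in the flank: 7.82 and 8.28, 5.43 and 5.31, and 8.46 and 7.35. Ahead of the C-type genes, a region at 37800606 to 37801196, 5434 bp before the Pcdhgc3 start and in an intron of the upstream gamma genes, had 6.45 and 5.30. Behind the Pcdhgc5 start, introns of the gamma genes held regions at 37824780 to 37826041 (7.89 and 7.01) and 37830374 to 37830730 (6.51 and 6.54). A region in the last exon, shared by all 22 gamma genes including Pcdhgb8, was listed in replicate 1 alone, at 3.41.

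Reference sequence within 1000 bp of each 5′ end was compared between accessible and inaccessible members. CpG dinucleotides, in which the promoters of broadly used genes are usually rich, were counted as a ratio of observed to expected. The median ratio was 0.641 for alpha, 0.334 for beta and 0.513 for gamma genes, against 0.605 for all genes with a region in both libraries and 0.176 for all with a region in neither. By this ratio the alpha promoters lay around the median of accessible promoters elsewhere, with the lowest at 0.520. By number they held fewer CpGs, a median of 54.5 per window against 85.0 for all genes with a region in both libraries. Among other genes between the alpha quartiles (0.570 to 0.667), 2860 of 3083 had a region in both libraries (92.8%), where 0 of 14 alpha genes did. Between the gamma quartiles (0.472 to 0.608) 88.3% did, against 57.1% of gamma genes. Between the beta quartiles (0.285 to 0.371) 48.1% did, against 0 of 22 beta genes. Over the quartiles of all 57 genes together (0.351 to 0.606) the share was 82.2%.

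**Figure D4:**
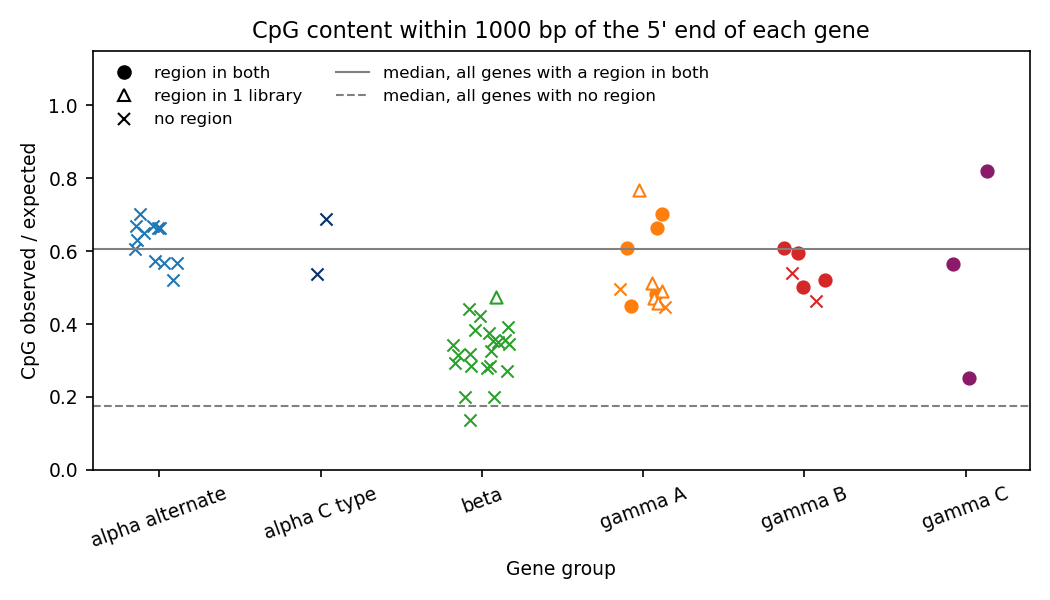
CpG observed over expected within 1000 bp of the 5′ end of each of the 57 genes by group, circles for a region in both libraries, triangles for 1 library and crosses for none. Alpha genes lie around the median of accessible promoters (solid line, 0.605) without a region, and beta genes lie mostly between it and the median of promoters with no region (0.176).

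Within the gamma cluster CpG content separated the genes less. Its median was 0.581 at the 12 genes with a region in both libraries, 0.492 at the 5 with a region in 1 library and 0.480 at the 4 with none. Pcdhgc3 had the highest ratio of all members, 0.820, and Pcdhgc5 the lowest of the gamma genes, 0.251, with the weakest shared signal. Pcdhga11 had 0.767 and a region in 1 library. GC content was low throughout, with medians of 41.9% for alpha, 42.1% for beta and 45.5% for gamma genes, against 53.8% for all genes accessible in both libraries.

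Because members are related in sequence, reads from them can match several places, so 36-base words that occur once on the standard chromosomes were counted. They made up a median of 89.6% of the alpha windows, close to 100% of the beta windows and 98.8% of the gamma windows, against 99.0% over all genes. Pcdhac1 and Pcdhac2 were at 100% without a region. Of the 21 beta genes with no region, 12 were at 95% or more. Pcdhgb4, with a region in both libraries, had the lowest share of the gamma genes, 83.2%, and Pcdha7 the lowest of all, 75.6%. How reads with several matches were treated was not given in the sources used here, and its part in the alpha result was not tested.

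Consensus sequences on both strands gave little that was shared by the accessible members. A degenerate CTCF consensus matched in 6 of 14 alpha windows (42.9%), in no beta or gamma window and in 1.71% of all promoters. The 6 were Pcdha1, Pcdha4, Pcdha6, Pcdha7, Pcdha8 and Pcdha12. Their matches lay within the first exon, 465 bp after the first base of the start codon in Pcdha1 and 462 bp after it in the other 5, and none was in an accessible region. The AP-1 sequence TGANTCA was in 38.6% of member windows and 37.3% of all promoters, the RUNX sequence TGTGGT in 66.7% and 70.6%, and the ETS sequence CCGGAAG in 12.3% and 24.5%. Within 100 bp of the 16 gamma promoter summits of replicate 1, there was no CTCF, AP-1 or ETS match. Over all promoter regions the shares were also low, at 1.27%, 5.60% and 12.8%. RUNX was at 2 of the 16 (12.5%, against 9.19% of all promoter regions). Of the 13 in replicate 2, none had CTCF or AP-1 (1.27% and 5.72% of all promoter regions). ETS was at 1 (7.69%, against 12.6%) and RUNX at 1 (7.69%, against 8.75%). Of the 7 other gamma regions of replicate 1, 3 had AP-1 (42.9%, against 28.8% of all other regions). No match says only that these letters are not in the window.

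Genes known to act on these clusters were accessible almost throughout. Of 23 such genes, 22 had an accessible promoter in each library (95.7%, against 62.8% of all protein-coding genes in both). Nipbl, the cohesin loader, had none by the summit rule. The insulator gene Ctcf had a signal of 10.3 and 9.90, the cohesin subunit gene Rad21 13.7 and 12.3, and the histone methyltransferase gene Setdb1, the strongest, 18.7 and 16.0. The chromatin repressor gene Smchd1 had 12.2 and 11.3 and the DNA methyltransferase gene Dnmt3b 12.4 and 10.7. Their accessible promoters do not show that the proteins act on the clusters in these cells.

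Protocadherin genes outside the clusters were accessible more often than the alpha and beta genes: 8 of 12 (66.7%), near the 62.8% of all protein-coding genes. Pcdh1 led at 10.9 and 10.2, and Pcdh11x, Pcdh12, Pcdh15 and Pcdh20 had no region. Of 23 numbered cadherin genes, 9 were accessible (39.1%). Among other families in tandem arrays the shares were spread widely, above and below the share of all genes. Hox genes, the developmental regulators, were accessible in 32 of 39 cases (82.1%), and genes of the first histone cluster in 40 of 54 (74.1%). Keratin genes were accessible in 5 of 53 (9.43%), olfactory receptor genes in 17 of 1134 and vomeronasal receptor genes in 1 of 331 (0.302%). The alpha and beta genes lay beside the receptor families by this count and the gamma genes near the share of all genes. The median CpG ratio of olfactory receptor promoters was 0.109, below that of each protocadherin cluster.

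**Figure D5:**
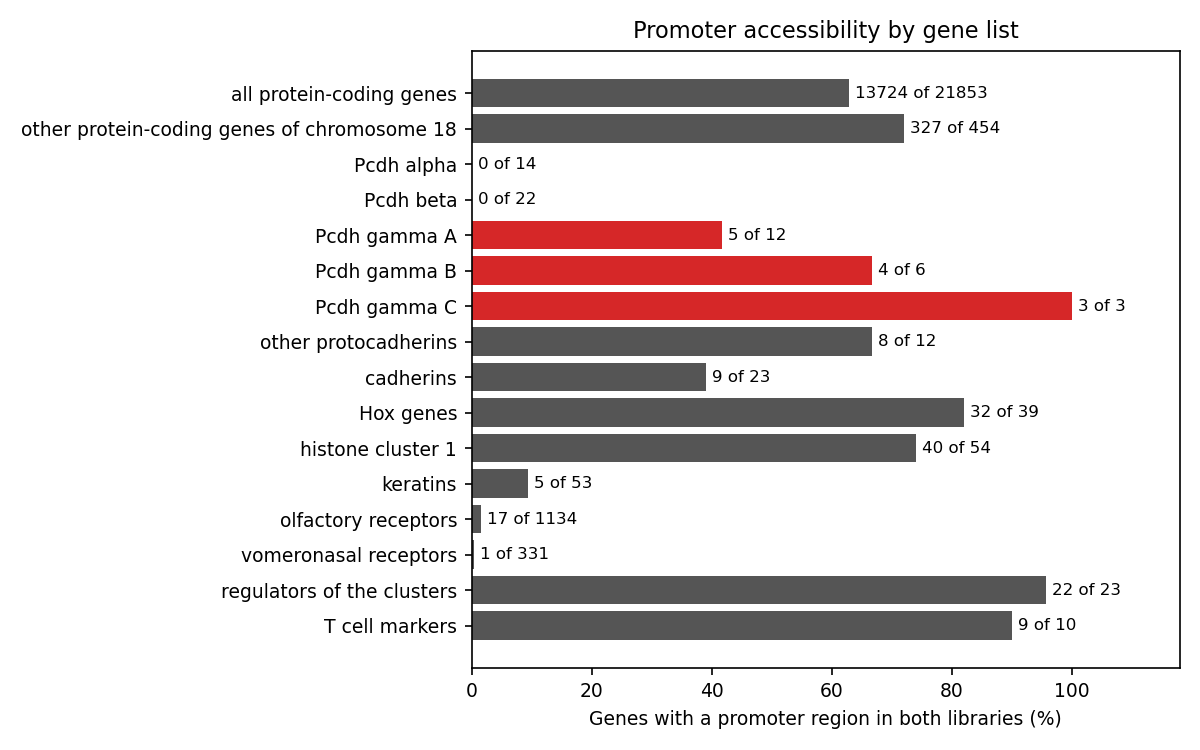
Share of genes (%) with a promoter region in both libraries, protocadherin groups in red and other lists in grey, with the count beside each bar. The alpha and beta bars are at 0, and the gamma A, B and C bars are at 41.7%, 66.7% and 100%.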

How the data were processed

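The authors deposited a peak list in narrowPeak format for each of the 2 libraries, called on that library's own alignments to mm10, per the labels and the deposited notes. Aligner, caller, threshold and any shift of reads: not given in the sources used here. The deposited signal (column 7) is a ratio, read from its values as fold enrichment over local background, with no scaling between libraries stated. The deposited −log10 p and −log10 q are the caller's own, and the authors' score was not used.

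Regions on the 21 standard chromosomes were kept. Genes and 54361 starts came from GENCODE mouse release 21, on the coordinates of mm10, and sequence from RefSeq GRCm38. Regions of the libraries were shared if they overlapped by 1 bp. Python 3.11.15, pandas 2.3.3 and numba 0.67.0 were used, and the code was tested on simulated data. No hypothesis test was run, because there was 1 group. Named genes were every member with a promoter region, a region in its first exon or a summit within 5000 bp of its start. The first and last gene of each cluster, the C-type genes and some of the genes between and beside the clusters were also named. Of each other list, the strongest and up to 2 without a region were named. Ctcf, Rad21, Smchd1, Dnmt3b, further protocadherins without a region and the members named for CpG content, unique words or CTCF matches were chosen after their values were seen. Members and lists were chosen with earlier results of these data known. Alternatives were peak thresholds, promoter distances, flanks, overlap, starts, backgrounds and each library alone.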

Additional observations from a re-analysis of the deposited data

How the results depend on the processing

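Of 88 alternative values, 73 stayed within 1.5 times the main count or within the spread of the libraries and 15 moved. Counts, shares and medians cannot change sign. The median of a single library lies within the spread by construction. Background shares were judged against the confidence interval of the main share, and all of them moved. The 0 alpha promoters held in all 9 alternatives, and none could have changed it, since the alpha window with 50 kb flanks held no region. A count of 0 cannot fall in a stricter setting either, so part of the 73 was fixed in advance. The 12 gamma promoters became 9 with −log10 q of at least 5 and 8 with the 50000 strongest regions of each library. The share of all genes went from 62.8% to 61.5% and 56.9%. With a region in either library there were 17 gamma promoters, against 65.0% of all genes. Pcdhga1, Pcdhga8 and Pcdhgc5 were lost in both stricter settings and Pcdhga10 in the second. Promoter distances of 500 and 2000 bp, the 5′ end alone and any overlap left the count at 12. The share of all genes in these settings was 58.0%, 66.3%, 58.1% and 65.0%. Beta promoters were 0 to 1 when each library was left out, and 1 with either library. Beta regions of replicate 2 fell from 1 to 0 in both stricter settings. Alpha regions of replicate 2 rose from 0 to 1 with flanks of 100 kb, which reach Pcdhb1. With a library left out no overlap exists, and the overlap alternative took the region count of the other library. For beta without replicate 1 this count was 1. The mean gamma median signal of 6.41 became 6.65 with −log10 q of at least 5 and 7.43 with the strongest regions. The median −log10 q of 25.2 became 28.4, 35.5 and, without flanks, 18.4. Unknown depth limits every statement that a region is missing.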

Other observations

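Noncoding genes and pseudogenes were counted in the same windows, with no share over all noncoding genes to set beside them. Of 25 annotated in the windows, 13 lay before the end of the beta cluster and 0 of them had a region within 1000 bp of the start in either library. This repeats the count above, since no region but that of Pcdhb1 lay there. Of the 12 after it, 6 had such a region in both libraries and 1, Gm26672, in replicate 2 alone. The regions counted for the antisense genes Gm37118 and Gm37165 were those of Pcdhga1 and Pcdhga8, and the Pcdhgb8 region described above was also counted. The long noncoding RNA gene 3222401L13Rik, which ends at the start of the gamma cluster, had a signal of 3.64 in replicate 1 and 5.09 in replicate 2. These genes were chosen after the values were seen.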
